A study of Drosophila melanogaster with 7 samples.

Results

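The lipid uptake and storage genes examined here are 10 Drosophila melanogaster genes that carry lipid into cells or hold it there: the yolk receptor gene yl, the lipophorin receptor genes LpR1 and LpR2, the fatty acid transport protein genes Fatp1, Fatp2 and Fatp3, the triglyceride synthesis genes Lpin and mdy, the droplet coat gene Lsd-2 and the lipase gene bmm. They were chosen by name and function, with the Atx2 against control results of these libraries already known, so what separates the groups in these 10 genes is given as a description, with no p-value, and counts of them past a threshold support nothing. They are 10 of 13771 genes listed in the gene table, and all of their 51 transcripts were read from the transcript table. RNA came from ovarian cells that carried a bam promoter reporter, bamP-GFP, and were isolated by flow cytometry as live GFP-positive cells. In 4 libraries an shRNA, a hairpin RNA that lowers its target, was directed against Atx2 (Ataxin-2, an RNA-binding protein), and in 3 control libraries it was directed against mCherry, a fluorescent protein. In both groups the shRNA was driven by nos-GAL4::VP16, a germline driver, and each group used 1 shRNA line, so every library carries the driver and a hairpin. The labels do not state the age of the flies or whether replicates came from separate animals, so a p-value here measures the spread between these libraries, which may be technical.

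In insects, lipid reaches the ovary in lipophorin particles and in yolk proteins, both made elsewhere in the body or in the follicle cells that surround the germline. The growing oocyte takes yolk protein up by endocytosis through the receptor encoded by yl, a member of the low-density lipoprotein receptor family, and lipophorin receptors of the same family bring in neutral lipid. Fatty acids that enter are joined to coenzyme A, built into diacylglycerol and triglyceride, and stored in droplets whose protein coat limits access by lipases. Nurse cells make many of these droplets and pass them to the oocyte, where they feed the embryo.

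Atx2, the targeted gene, was lower in all 4 knockdown libraries, at 233 ± 28.7 CPM (a gene's count scaled to a common library total; mean ± SD, n = 4) against 420 ± 27.3 in the 3 controls. This gave -0.85 ± 0.10 (SE) as its log2 fold change (adjusted p = 0.00166) in edgeR's quasi-likelihood test with Benjamini-Hochberg adjustment. Library totals ranged from 65262402 to 101809997 estimated counts, at which 3 counts equal 0.0295 to 0.046 CPM. Of 10514 genes tested, 1396 (13.3%) had an adjusted p under 0.05, of which 806 (7.67%) were lower and 590 (5.61%) higher with the Atx2 shRNA. The share of calls that were higher was 42.3%, and it was 57.5% with upper-quartile scaling and 61.1% with limma on TPM. A fit with the replicate number as a block called 2941 genes (28.0%). It was run since same-numbered libraries deviated together, though those numbered 1 did so less than 1 unlike-numbered pair. Atx2 replicate 4 has no control of its number, so the block fit compares only replicates 1 to 3 of each group. In the fit without the block, the count of calls was 773 without Atx2 replicate 3 and 796 without Atx2 replicate 4. It was 467 without control replicate 1 and 469 without control replicate 2.

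The labels name the cells as germ cells, and all 8 of the listed germ cell markers that matched were detected, with vas at 398 ± 43.6 CPM in the Atx2 shRNA libraries and 430 ± 57.7 in the controls. Summed over the 8 markers, the level was 1680 to 2140 CPM with the Atx2 shRNA and 2190 to 2560 CPM in the controls, so the groups did not overlap in the sum. Its members did not all move one way. By edgeR's test otu, ovo and zpg fell (log2 fold changes -0.87, -0.57 and -0.48), while bgcn, a partner of bam in cyst differentiation, rose from 6.95 to 17.8 CPM (1.35). bam, whose promoter drives the sorted reporter, was at 41.8 ± 5.33 CPM against 34.4 ± 1.85, above in every knockdown library (edgeR adjusted p = 0.102). Markers of later germline stages summed to 1350 to 1880 CPM against 1860 to 2760 CPM. By edgeR's test orb and bcd fell (log2 fold changes -0.73 and -0.74), and the others of that list did not pass. Follicle cell markers, which include yolk and eggshell protein genes, were also abundant, at 5050 to 20500 CPM against 19300 to 38300 CPM over 16 genes. Yolk and eggshell genes made up most of that sum, and by edgeR's test Vm34Ca, Vm26Ab, dec, Vml and psd fell. Of the other follicle cell genes, eya and Fas3 rose, from 211 to 334 CPM and from 135 to 183 CPM, while tj, cas and br did not pass the test. Muscle sheath markers were higher with the Atx2 shRNA, at 893 to 1280 CPM against 510 to 812 CPM, and all 8 passed the test. Hemocyte markers summed to 321 to 859 CPM against 175 to 366 CPM over 6 genes. Escort and cap cell markers summed to 488 to 567 CPM against 447 to 588 CPM over 6 genes. Fat body markers summed to 35.9 to 53.2 CPM against 15.4 to 22.2 CPM over 8 genes, most of it from apolpp. Of the others, Lsp1beta, Fbp1 and Lsp2 averaged 1.22, 0.739 and 0.162 CPM with the Atx2 shRNA. In the controls they averaged 0.629, 0.322 and 0.114 CPM. AkhR averaged 0.26 CPM with the Atx2 shRNA and 0.255 CPM in the controls. By edgeR's test only apolpp of the fat body list passed. Heat shock genes, 15 in the list, summed to 8520 to 11600 CPM in the 4 libraries numbered 1 and 2 and to 16600 to 18000 CPM in the 3 libraries numbered 3 and 4, in both groups alike. No marker was at 0 in all libraries. The part of cell makeup or of handling in the results below was not tested, and in RNA of pooled cells fewer cells of a type and less RNA per cell cannot be told apart.

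**Figure D1:**
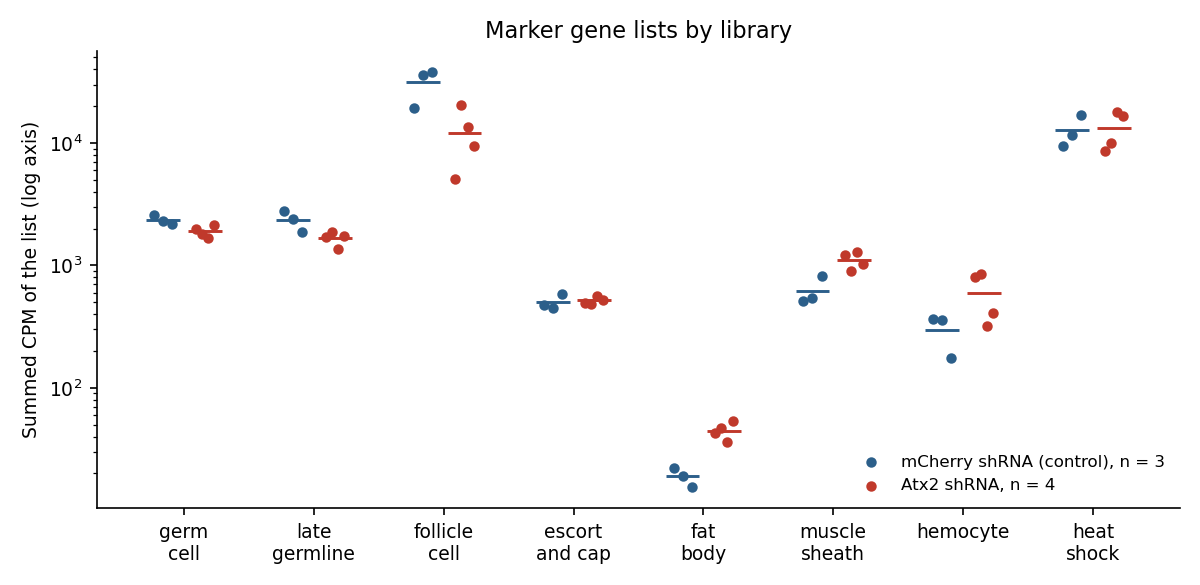
Summed CPM (log axis) of each marker gene list in each library, with lines at the group means. Germ cell sums lie at 1680 to 2140 with the Atx2 shRNA (4 red points) and 2190 to 2560 in the controls (3 blue points), muscle sheath and fat body sums are higher with the Atx2 shRNA, and the remaining lists overlap between groups.

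Compared per transcript length, in the deposited TPM (an abundance corrected for transcript length), the 10 genes span a wide range of levels. In the controls Lsd-2 stood at 240 ± 38.7 TPM and yl at 227 ± 38.8 TPM (SD, n = 3), followed by Lpin at 124 ± 9.14, bmm at 110 ± 18.1 and LpR2 at 70.8 ± 6.96 TPM. Below these came Fatp1 at 25.0 ± 2.53, LpR1 at 19.9 ± 4.07, mdy at 17.5 ± 0.78 and Fatp3 at 8.98 ± 2.01 TPM. Fatp2 was at 0.0288 TPM. The neighbours Lsd-2 and yl, Lpin and bmm, and LpR1 and mdy differed in the controls by less than the larger SD of each pair. With the Atx2 shRNA the order at the top was yl at 173 ± 18.4 TPM, Lsd-2 at 152 ± 11.2 TPM, Lpin at 135 ± 44.6 TPM and bmm at 115 ± 38.0 TPM (n = 4). LpR2 then stood at 79.1 ± 9.85, Fatp1 at 31.0 ± 3.16, LpR1 at 15.2 ± 2.75, mdy at 13.9 ± 0.503 and Fatp3 at 1.79 ± 0.303 TPM.

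**Figure D2:**
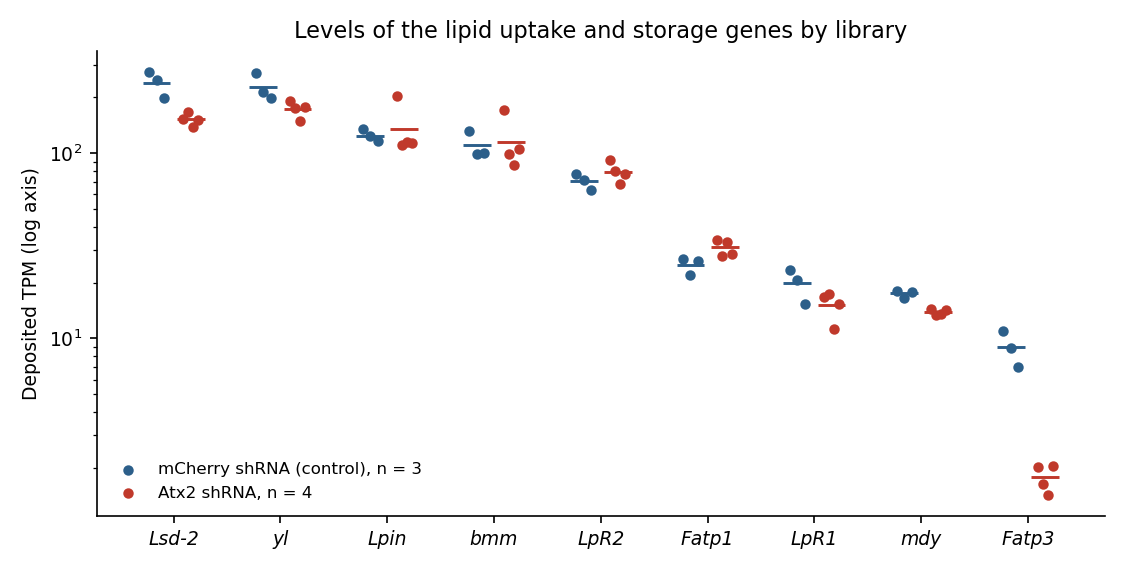
Deposited TPM (log axis) of the 9 tested lipid uptake and storage genes in each library, in order of their control mean, with lines at the group means (3 control and 4 Atx2 shRNA libraries). Fatp3 shows the widest gap between the groups, 8.98 against 1.79 TPM on average, and 1 Atx2 shRNA library stands above the others for both Lpin and bmm.

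Between the groups, Fatp3, Lsd-2, mdy and yl were lower in every Atx2 shRNA library than in every control library, and Fatp1 was higher, in CPM and in TPM alike. LpR1, LpR2, Lpin and bmm overlapped between the groups. Of all tested genes, 15.1% were lower without overlap and 12.3% higher without overlap. By edgeR's threshold 3 of the 9 tested genes were called (mdy, Lsd-2 and Fatp3, all lower), beside 13.3% of all genes. The fit with the replicate block called 6, adding yl and LpR1 as lower and Fatp1 as higher, beside 28.0% of all genes. Since the genes were chosen with this contrast known, nothing is read from these shares. The median log2 fold change of the 9 was -0.40, and that of all tested genes was 0.00608.

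yl encodes the vitellogenin receptor of the oocyte surface and lies on the X chromosome at 14193214 to 14199958 on the plus strand of the BDGP6.54 annotation. Its level was 908, 977, 755 and 865 CPM in Atx2 shRNA replicates 1 to 4 and 1300, 1160 and 1010 CPM in control replicates 1 to 3. All knockdown libraries were below the lowest control, by a narrow margin between knockdown replicate 2 and control replicate 3. The log2 fold change was -0.40 ± 0.12 (SE). The difference in mean log2 CPM was -0.39 among the libraries numbered 1 and 2 and -0.33 among those numbered 3 and 4. Divided by the summed germ cell markers of the same library, a measure added after the data had been seen and one whose members moved in both directions, the log2 level differed by -0.09 between the groups, and the groups overlapped. The marker sum was lower with the Atx2 shRNA, so this division raised the log2 difference of each lipid gene so divided by a similar amount.

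LpR1 (3R, 25741348 to 25763105, minus strand) and LpR2 (3R, 25698727 to 25740465, minus strand) are neighbouring genes for lipophorin receptors. LpR1 was at 44.4, 52.9, 32.1 and 42.5 CPM with the Atx2 shRNA and at 65.2, 64.0 and 44.8 CPM in the controls. The third control library fell within the knockdown range, so the groups overlapped. The log2 fold change of LpR1 was -0.43 ± 0.18. LpR2 was at 263, 263, 214 and 230 CPM against 234, 242 and 204 CPM, and the groups overlapped across most of their range, with a log2 fold change of 0.10 ± 0.10. The 2 receptor genes therefore had fold changes of opposite sign, and both overlapped between the groups. In the deposited gene table neither count was whole (within 0.01) in any of the 7 libraries, but their sum was whole in all 7, as when reads are divided between the pair, so the split between LpR1 and LpR2 is uncertain. Relative to the summed germ cell markers, LpR2 was higher with the Atx2 shRNA in every library, by 0.41 on the log2 scale, and LpR1 overlapped at -0.12. Both values hold the common upward shift that this division gives.

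The 3 Fatp genes encode transport proteins that also activate fatty acids. Fatp3 (2R) was at 3.28, 3.14, 2.48 and 3.46 CPM with the Atx2 shRNA, from 187 to 286 counts a library. The controls held 18.2, 16.7 and 12.3 CPM, from 1075 to 1457 counts a library. Every knockdown library was far below every control, at 19.7% of the control mean, with a log2 fold change of -2.34 ± 0.17. The difference in mean log2 CPM was -2.43 among libraries numbered 1 and 2 and -2.05 among those numbered 3 and 4, and relative to the germ cell markers it was -2.02 without overlap. Fatp1 (2L) was at 58.0, 55.1, 60.8 and 51.4 CPM against 48.1, 44.6 and 48.5 CPM. The lowest knockdown library was above the highest control, with a log2 fold change of 0.26 ± 0.08, and relative to the germ cell markers the difference was 0.57 without overlap. Fatp2 (2R) had 1, 2, 2 and 0 counts with the Atx2 shRNA and 10, 1 and 2 in the controls. All but 1 library lay at or under 3 counts, so Fatp2 did not pass the count filter and no fold is given.

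Lpin encodes the phosphatidate phosphatase that makes diacylglycerol, and mdy (midway) the acyltransferase that turns diacylglycerol into triglyceride. Lpin (2R) was at 587, 380, 366 and 343 CPM with the Atx2 shRNA and at 404, 420 and 370 CPM in the controls. Knockdown replicate 1 was the highest library, replicate 2 lay within the control range and replicates 3 and 4 lay below it, with a log2 fold change of 0.07 ± 0.17. Without knockdown replicate 1 the log2 fold change was -0.13. Lpin shares 600 exon bases (10.9% of its exons) with kermit on the same strand, and their counts too were whole in all 7 libraries only when summed. mdy (2L, 16816660 to 16826964) was at 20.1, 21.0, 19.7 and 20.5 CPM against 27.4, 27.4 and 27.1 CPM. On the log2 scale, the SD of mdy between replicates, pooled over the groups, was the smallest of the 9 genes (0.0317). The groups were well apart in mdy, with a log2 fold change of -0.42 ± 0.06. Its difference was -0.41 among libraries numbered 1 and 2 and -0.43 among those numbered 3 and 4. Relative to the germ cell markers it was -0.11, with overlap.

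Lsd-2 encodes a perilipin, a protein of the droplet surface, and bmm (brummer) the lipase that releases fatty acids from stored triglyceride. Lsd-2 (X, 15069127 to 15076220, minus strand) was at 220, 274, 218 and 230 CPM with the Atx2 shRNA and at 421, 416 and 317 CPM in the controls. All knockdown libraries were below the lowest control, with a log2 fold change of -0.71 ± 0.12. The difference was -0.77 among libraries numbered 1 and 2 and -0.50 among those numbered 3 and 4. Relative to the germ cell markers it was -0.39, and the groups then overlapped. bmm (3L, 14776496 to 14786412, minus strand) was at 274, 183, 147 and 174 CPM against 223, 188 and 177 CPM. The knockdown libraries lay on both sides of the controls, with replicate 1 the highest as for Lpin, and the log2 fold change was -0.01 ± 0.19.

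**Figure D3:**
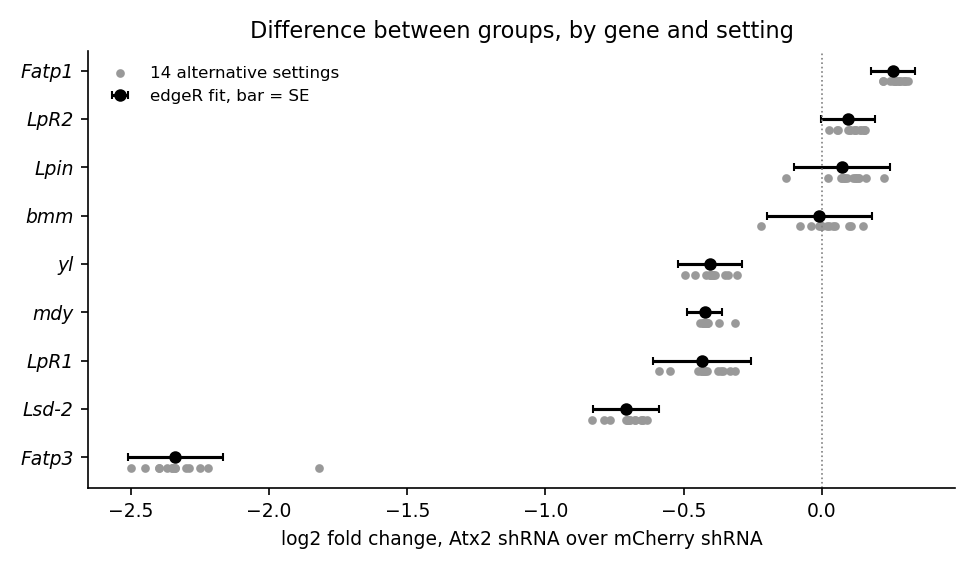
Log2 fold change (Atx2 shRNA over mCherry shRNA) of the 9 tested lipid uptake and storage genes, as the edgeR value with its standard error (black) and as the values under 14 alternative settings (grey). Fatp3 lies near -2.34, Lsd-2 near -0.71, and yl, mdy and LpR1 near -0.4, while bmm and Lpin take both signs across the settings.

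Among non-members, the genes whose log2 CPM over the 7 libraries was most like that of yl were Gs1 (Pearson r 0.996), Ndae1 (0.992) and GrlHz (0.991). For mdy they were CG18278 (0.996), CG11655 (0.995) and CG2993 (0.994), and for Lsd-2 they were CG7362 (0.997), Rcc1 (0.997) and CG3788 (0.995). These libraries fall into 2 groups that differ in all of these genes, so a high r reflects in part that shared gap. CG18278, for example, ranged from 8.52 to 10.9 CPM in the knockdown libraries and from 37.7 to 40.7 CPM in the controls.

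The transcripts of several of these genes differed in their share of the gene's estimated counts. Shares come from the authors' estimates for transcripts that overlap over most of their length, so a share can move by reassignment of the same reads, and 23 of the 51 transcripts reached a mean share of 10% in either group. For yl, transcript yl-RA held 21.8%, 20.8%, 24.6% and 24.0% with the Atx2 shRNA and 17.3%, 15.6% and 16.4% in the controls, without overlap. yl-RA differs from yl-RB only by 77 retained bases (X, 14199545 to 14199621), a stretch that coincides with the annotated mir-4917, and the annotated proteins are 1937 and 1984 residues long. In TPM, yl-RA overlapped between the groups, at 38.9 ± 3.46 against 37.1 ± 8.15. yl-RB did not, at 134 ± 16.2 against 190 ± 30.8 TPM, so the groups separated in the spliced transcript and not in the retained form.

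In the lipophorin receptor genes the shares moved between transcripts that differ in their ends and in internal stretches. LpR1-RJ, with an annotated protein of 996 residues, held 16.3% ± 1.26 of LpR1 counts with the Atx2 shRNA against 33.8% ± 2.86 in the controls. Besides its end, LpR1-RJ differs from LpR1-RP by internal stretches of 177 added and 117 missing bases. LpR1-RS, which starts 10110 bases downstream of the most upstream start and encodes 887 residues, held 19.8% ± 5.79 against 6.95% ± 1.48. Neither overlapped between the groups, while the leading transcript LpR1-RP held 60.2% ± 4.73 against 56.9% ± 3.82 with overlap. LpR2-RE held 15.7%, 22.9%, 42.0% and 31.7% of LpR2 counts with the Atx2 shRNA and 46.9%, 50.0% and 58.8% in the controls, below in every library. LpR2-RC held 34.4% ± 3.24 against 25.1% ± 2.38, above in every library. LpR2-RC also lacks an internal stretch of 105 bases (3R, 25705931 to 25706035) that LpR2-RE has. Transcripts with that stretch made up 44.2% ± 7.13 of LpR2 TPM with the Atx2 shRNA against 62.2% ± 2.74 in the controls, without overlap. Transcripts with the longer LpR2 3′ end, which reaches 497 bases further, together held 49.6% ± 5.22 against 35.9% ± 1.87 without overlap. The upstream start of LpR2 and the start 20348 bases downstream of it held 63.1% ± 10.4 and 36.9% ± 10.4 with the Atx2 shRNA. In the controls they held 78.2% ± 8.42 and 21.8% ± 8.42, and the groups overlapped. The totals of LpR2 thus overlapped between the groups while the shares of LpR2-RE, LpR2-RC and the longer 3′ end did not. The uncertain split of counts between LpR1 and LpR2 applies to these shares as well.

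Lsd-2 and bmm each showed a shift between transcripts that share a start site. Lsd-2-RB, which lacks a 51-base stretch (X, 15073341 to 15073391) and encodes 335 residues, held 54.2% ± 3.19 of Lsd-2 counts with the Atx2 shRNA against 46.4% ± 0.922 in the controls, without overlap. Lsd-2-RA, with that stretch and 352 residues, held 32.4% ± 1.86 against 34.3% ± 1.21 with overlap. Lsd-2-RA, Lsd-2-RE and Lsd-2-RF, the transcripts with the 51-base stretch, together made up 37.8% ± 3.03 of Lsd-2 TPM with the Atx2 shRNA. In the controls they made up 44.3% ± 0.686, without overlap. Lsd-2-RE was at 16.9, 16.1 and 9.87 TPM in the controls, and in the knockdown libraries it was listed at 1.09 TPM in replicate 1, at 0 in replicates 2 and 3 and at 1.1e-05 in replicate 4. It stood under the 10% share used for naming transcripts and is named after its values were seen. A 182-base stretch (X, 15072786 to 15072967) that Lsd-2-RE shares with Lsd-2-RD and Lsd-2-RF made up 8.68% ± 1.06 of Lsd-2 TPM with the Atx2 shRNA against 15.2% ± 0.944 in the controls, without overlap. For bmm, bmm-RA held 51.4%, 44.1%, 53.7% and 48.4% with the Atx2 shRNA and 61.0%, 62.4% and 63.1% in the controls, below in every library. bmm-RB, which lacks 136 bases (3L, 14777106 to 14777241) and encodes 553 residues rather than 507, held the rest, 50.6% ± 4.16 against 37.8% ± 1.08.

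For the remaining genes the shares of the transcripts at or above 10% overlapped between groups. The leading Fatp3-RA held 60.0% ± 20.1 of Fatp3 counts with the Atx2 shRNA against 87.0% ± 2.12 in the controls, at 88 to 162 counts a library in the knockdown. In TPM, Fatp3-RA was at 1.15, 0.968, 1.25 and 0.803 against 9.82, 7.56 and 6.16, below in every library. Fatp3-RB, which starts 1302 bases further downstream, overlapped at 0.749 ± 0.448 against 1.13 ± 0.248 TPM, so the groups separated in Fatp3-RA and not in Fatp3-RB. Fatp1-RE held 82.8% ± 4.11 against 78.8% ± 2.53, Lpin-RC 53.0% ± 3.15 against 50.9% ± 0.996, and mdy-RA 67.5% in both groups. Fatp1-RB, mdy-RC and mdy-RE held 14.1%, 14.8% and 11.0% with the Atx2 shRNA and 14.4%, 13.4% and 12.9% in the controls. Fatp1-RA, a minor transcript named after its values were seen, held 3.16% ± 1.47 against 6.81% ± 1.2, below in every library, and in TPM it overlapped.

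**Figure D4:**
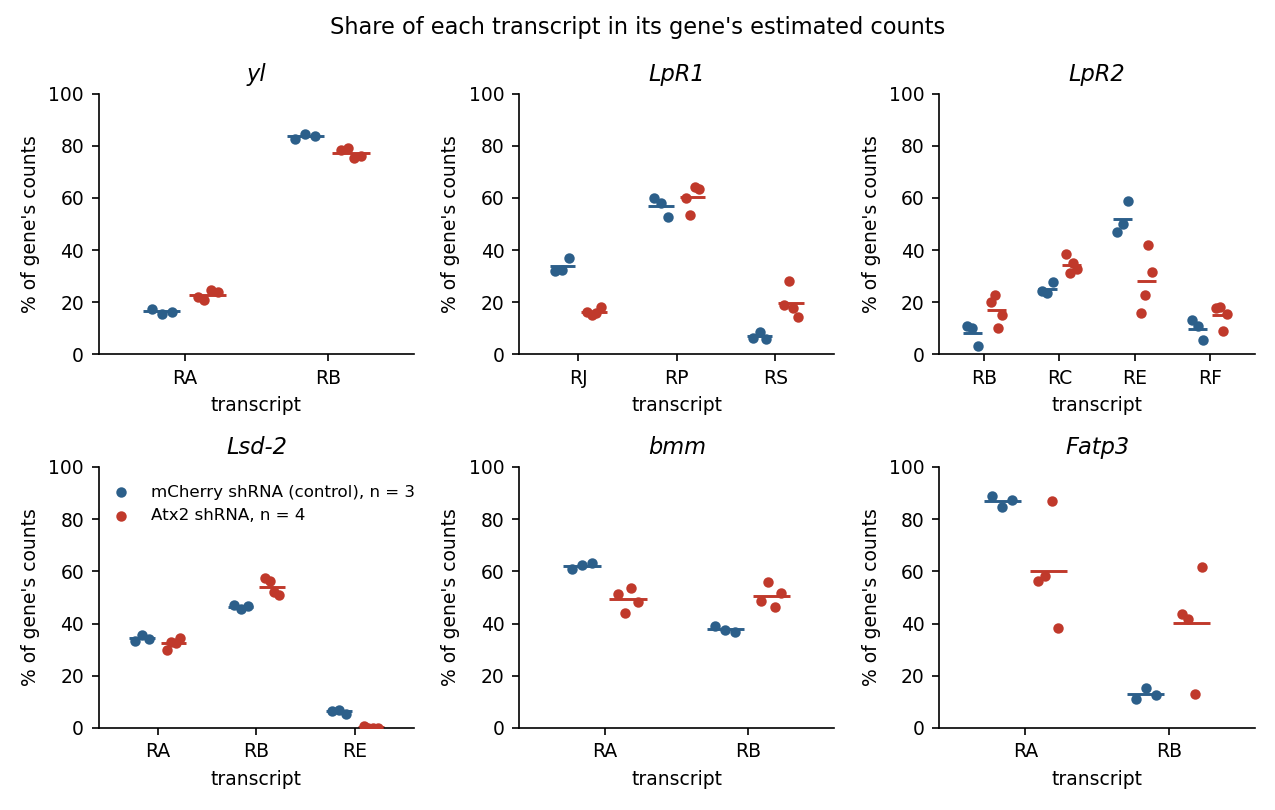
Share (%) of named transcripts in their gene's estimated counts for 6 genes, per library, with lines at the group means (3 control and 4 Atx2 shRNA libraries). yl-RA, LpR1-RS, LpR2-RC, Lsd-2-RB and bmm-RB are higher in every Atx2 shRNA library, yl-RB, LpR1-RJ, LpR2-RE, Lsd-2-RE and bmm-RA are lower, and the other transcripts shown overlap.

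Other genes of lipid uptake, synthesis, storage and use were followed through 10 lists with 108 matched genes, of which 103 were tested. Of these, 14 fell with the Atx2 shRNA, 2 rose and 87 did not pass the test, so 15.5% were called beside 13.3% of all genes. The median log2 fold change of the 103 was -0.08, beside 0.00608 over all genes. With the replicate block 25 fell and 9 rose, so 33.0% were called beside 28.0% of all genes. The count of genes that fell was 4 without control replicate 1 or without control replicate 2, and 6 without Atx2 replicate 1, 3 or 4. It was 5 with the libraries numbered 1 and 2 alone. The count of genes that rose was 1 without Atx2 replicate 1, 3 or 4 and without control replicate 1 or 2. All adjusted p-values that follow are from edgeR's quasi-likelihood test with Benjamini-Hochberg adjustment over all tested genes.

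In the droplet coat and biogenesis list, 1 of 7 genes fell and 1 rose, and with the replicate block 2 fell and 1 rose. Jabba, a droplet protein that also anchors histones on droplets in the embryo, was at 21.7, 28.9, 15.6 and 21.8 CPM with the Atx2 shRNA and at 86.5, 95.8 and 62.3 CPM in the controls. The highest knockdown library was under the lowest control by more than the SD of either group, with a log2 fold change of -1.89 ± 0.21 and an adjusted p of 0.00105. Its direction was that of Lsd-2, with a larger fold. Ldsdh1, a dehydrogenase found on droplets, rose by 1.07 ± 0.31 on the log2 scale (adjusted p = 0.0493), from 0.531 to 1.12 CPM. Its mean lay under the 1 CPM set for naming, and it is named after its values were seen.

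Among lipid carriers and yolk proteins, 1 of 11 rose and 0 fell by edgeR's test, where 2 were lower at an unadjusted p under 0.05, 0 by DESeq2 and 0 by limma. With the replicate block 3 rose and 3 fell. apolpp, the precursor of the lipophorin proteins that the LpR receptors bind, was at 40.4, 45.5, 32.5 and 48.9 CPM against 20.7, 18.2 and 13.1 CPM, above in every knockdown library. Its log2 fold change was 1.27 ± 0.18 with an adjusted p of 0.00331. It is also the most abundant gene of the fat body marker list, whose summed level was higher with the Atx2 shRNA. The yolk protein genes Yp1, Yp2 and Yp3, whose products are taken up through yl, had log2 fold changes of -1.11, -0.94 and -1.49. Their adjusted p-values were 0.175, 0.21 and 0.0752 and their groups overlapped, and with the replicate block the adjusted p-values were 0.00696, 0.00842 and 0.00167. Yp1 alone spanned 624 to 3890 CPM among the knockdown libraries, and the 3 genes belong to the follicle cell list, whose summed level overlapped between the groups.

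Among fatty acid activation and binding genes, 3 of 9 tested fell. bgm, an acyl-CoA synthetase for very long chains, was at 37.3 ± 4.55 CPM against 70.2 ± 5.06, with a log2 fold change of -0.91 ± 0.11 (adjusted p = 0.00143). The peroxisomal acyl-CoA oxidase gene Acox57D-d fell by 0.76 on the log2 scale (adjusted p = 0.0294). fabp, a fatty acid binding protein gene, fell by 0.46 (adjusted p = 0.011), but shares 72.1% of its exon bases with sea on the same strand. In fatty acid synthesis, 2 of 13 fell. They were Baldspot, an elongase of long-chain fatty acids, at 67.1 ± 7.44 against 112 ± 13.3 CPM (log2 fold change -0.74 ± 0.11, adjusted p = 0.00461), and the acetyl-CoA synthetase gene AcCoAS, at -0.48 (adjusted p = 0.00994).

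In glycerolipid synthesis, the list that holds the partners of Lpin and mdy, 2 of 14 tested fell. Agpat1, an acyltransferase of the phosphatidate branch, had a log2 fold change of -0.77 ± 0.16 (adjusted p = 0.0152). mino, which adds the first acyl chain to glycerol 3-phosphate, had one of -0.37 ± 0.09 (adjusted p = 0.0306). Opposite-strand genes cover 25.8% of the exon bases of Agpat1 (CG32647) and 37.0% of those of mino (asRNA:CR46452), and whether strand was used in assigning reads is not given in the sources used here. On the same strand, an annotated transposable element covers 16.6% of the exon bases of Agpat1. In fatty acid oxidation, 2 of 10 fell. CPT2, a carnitine transferase of the mitochondrial membrane, was at -0.31 (adjusted p = 0.0348). Mcad, a medium-chain dehydrogenase, was at -0.44 (adjusted p = 0.0254), with 92.6% of its exon bases opposite CG7457.

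Among lipid sensing nuclear receptors, 2 of 7 fell, Hnf4 by 0.48 on the log2 scale (adjusted p = 0.0373) and ERR by 0.41 (adjusted p = 0.0447), the latter with overlap between groups and with antisense genes over 33.1% and 18.7% of its exon bases. In the list of receptor folding and yolk endocytosis, 2 of 14 fell, while with the replicate block 4 fell and 1 rose. The 2 that fell without the block were the recycling endosome GTPase gene Rab11, at -0.35 (adjusted p = 0.0386), and the GTPase gene Rala, which acts with the exocyst, at -0.31 (adjusted p = 0.0255). Of 10 other low-density lipoprotein receptor family and scavenger receptor genes, 0 passed edgeR's adjusted threshold, while 2 were higher at an unadjusted p under 0.05, 2 by DESeq2, 2 with the replicate block and 0 by limma. Of 8 genes of lipolysis and its hormones, 0 passed edgeR's adjusted threshold, while 1 was lower at an unadjusted p under 0.05, 1 by DESeq2, 1 with the replicate block and 0 by limma. Of the 15 named genes, apolpp, bgm, Baldspot and Jabba kept an adjusted p under 0.05 in all 14 alternative settings run. The other 11 each lost the call in at least 2 settings. It was lost in 9 settings by mino, in 8 by CPT2 and by ERR, and in 7 by Rab11 and by Hnf4. fabp lost it in 2, the fewest of the 11.

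**Figure D5:**
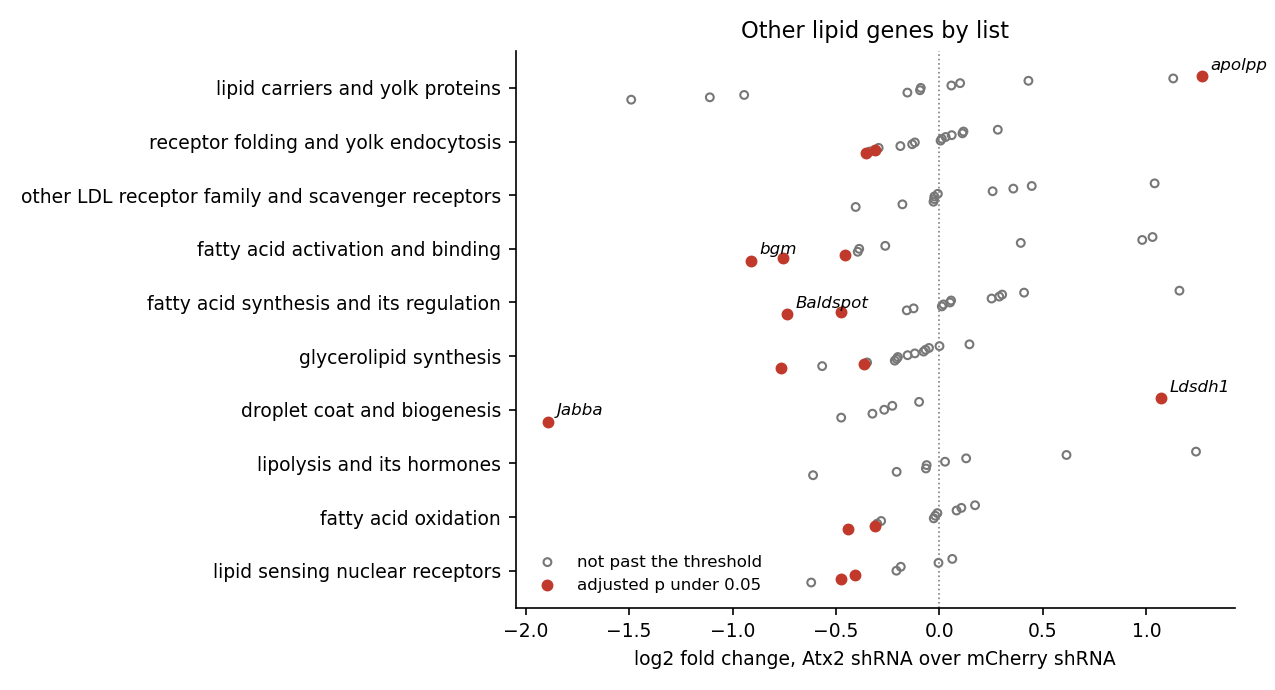
Log2 fold change (Atx2 shRNA over mCherry shRNA) of 103 tested lipid genes that are not among the 10, by list. Filled red points passed an adjusted p of 0.05 in edgeR (14 lower, 2 higher) and open points did not; Jabba at -1.89 is the lowest and apolpp at 1.27 the highest.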

How the data were processed

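RNA was depleted of ribosomal RNA and made into directional libraries without poly(A) selection from 18 ng, after ovary digestion at 37 °C for 30 min, per the labels' protocols; warm digestion precedes extraction and RNA without a tail can be counted. The submitters' processing notes name bcl2fastq 2.20, Trim Galore 0.6.7, cutadapt 2.10 and Salmon 1.9.0. The index, build and use of strand are not given in the sources used here. The authors deposited Salmon estimated counts, not normalized per the labels, and TPM (scaled for length within a library), per gene and per transcript. Gene counts equalled transcript sums within 1 count for 13771 genes. Positions are those of Ensembl's BDGP6.54 annotation, matched by FlyBase ID.

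Estimated counts were rounded, filtered with filterByExpr (minimum count 10, total 15), scaled by TMM and tested with edgeR 4.0.16 in R 4.3.3 (group only, two-sided, adjusted p of 0.05); the fit was tested on simulated data. Alternatives used DESeq2 1.42.0, limma 3.58.1 on log2(TPM + 1), other scalings, no filter, a replicate block and left-out libraries. Same-numbered libraries of the 2 groups, by the numbers in the titles, deviated together (r of 0.146, 0.336 and 0.519, against -0.383 to 0.157 for other pairs). This meets the rule of every same-numbered pair over 0.1. Atx2 replicate 2 with control replicate 1 (0.157) exceeded the pair numbered 1 (0.146), so the numbers do not settle the pairing there. Replicates differed beyond sampling noise, so each counts as 1. Counting floors cover counting error only. The 10 genes, the lists and the tests were chosen with earlier results of these data known. Named were the 10 genes, Atx2, the called genes of each list (up to 4 a direction by size, mean of at least 1 CPM), transcripts of at least 10% and, for 3 genes, the 3 genes most alike. Of 111 listed lipid genes and 9 germ cell markers, Abhd2, Lal, Hadh and nos were not analysed here. Division by germ cell markers was chosen after the data had been seen.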

Additional observations from a re-analysis of the deposited data

Results flagged for a closer look

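Among 46 groups of 4 Atx2 shRNA libraries examined, in 3 the farthest library's gap to the next, as a part of the group's range, exceeded Dixon's critical value, where chance gives about 1 in 20. Lpin in replicate 1 was at 587 CPM, above 343 to 380 CPM in the other 3 libraries. Rala in replicate 2 was at 78.6 CPM, above 71.8 to 72.0 CPM in the others. Mcad in replicate 2 was at 213 CPM, above 166 to 170 CPM in the others.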

How the results depend on the processing

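The count of 1396 called genes became 2150 with DESeq2, 2941 with the replicate block, 627 with the libraries numbered 1 and 2, and 467 to 1454 with 1 library left out. Lipid list genes that rose (2) numbered 5 with DESeq2, 1 with no filter on low counts, 9 with the replicate block and 1 to 2 with 1 library left out. Those that fell (14) numbered 5 with the libraries numbered 1 and 2, 8 with limma on TPM, 25 with the replicate block and 4 to 18 with 1 library left out. These subsets hold fewer samples; other causes were not tested. The replicate block ended no call of the 15 named genes. Atx2 ranged from -0.92 to -0.79 (log2) over 14 alternatives. The 15 named lipid genes kept their direction in all 210 alternatives, with the threshold passed in 146. Of 126 alternatives for the fold changes of the 9 tested lipid uptake and storage genes, 123 moved by less than the replicate SD. The exceptions were mdy with limma on TPM (-0.31) and with upper-quartile scaling (-0.37), and Fatp3 with limma on TPM (-1.82). Taken relative to the summed germ cell markers, which was added later, 8 of the 9 moved by more than the replicate SD, bmm being the other. Every gene was divided by the same sum, which shifted all 9 up by a similar amount, so the 8 are not separate results. bmm changed sign in 7 alternatives and Lpin in 1. All 168 alternatives for transcript shares moved by less than the replicate SD, but this says little on how firm the shares are. Most left out 1 library, which in groups of this size cannot shift a mean by as much as the pooled replicate SD. The rest took the share of TPM in place of counts, from the same estimates. Nearly the same limit holds for the fold changes with 1 library left out, so nothing is read from their small moves. The median log2 fold change of all genes was 0.00608, and at most 0.0603, with upper-quartile scaling. Depth limits Fatp2, at 0 to 10 counts a library.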
